A study of Bos taurus with 44 samples.

Results

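Endometrium between the caruncles was compared between cattle after somatic cell nuclear transfer (SCNT) and cattle after artificial insemination (AI). No array of that area set SCNT and AI animals against each other. Each group was instead hybridised against the same 5 CJ animals, labelled with the word cycle, and the difference SCNT minus AI was read through them. All 20 of the series' 44 arrays that carry intercaruncular RNA with a CJ animal were used: 10 with SCNT animals (NT in the labels) and 10 with AI animals (IAJ). The arrays hold 5 SCNT animals (B811, B873, B888, B902 and B904), 4 AI animals (B2, B3, B4 and B6) and 5 CJ animals (B5, B7, B8, B808 and B857), all Bos taurus. The sources used here do not give the stage of pregnancy, the breed or the age, and p-values measure the spread between these animals and arrays.

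In cattle the placenta attaches at the caruncles, while the intercaruncular lining between them holds the glands whose secretions feed the conceptus. The conceptus signals its presence with interferon tau, which induces interferon-stimulated genes in the uterine lining and keeps the oxytocin receptor low. SCNT conceptuses come from a body cell nucleus placed in an egg and are often lost, with placental defects, so the maternal tissue is compared with that of inseminated cows.

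The deposited values are log2 ratios of the dyes on 13824 probes, of which 8645 name 1 gene. The SD of the ratios on an array was 0.355 to 0.589, and both spots of each probe agreed at r = 0.781 to 0.935 across probes, which are not independent replicates. Each SCNT animal was on 2 arrays, and each CJ animal met 2 SCNT and 2 AI arrays with both dye orientations. The values are ratios, so the presence of tissue markers could not be checked. Each ratio was read as red dye (Cy5) divided by green (Cy3). This reading is likely and not stated: with it, interferon-stimulated genes lie above CJ in SCNT and AI animals, and OXTR below. The other reading turns every sign below.

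AI animal B4 stood apart and carried 4 of the 10 AI arrays, so differences are given with it and, below, also without it. Over all probes, its 4 arrays, turned to animal over CJ, correlated with each other at r = 0.29 to 0.75 and with the other 16 arrays at -0.24 to 0.40. The other 16 arrays correlated with each other at 0.22 to 0.74. B4 and B8 were hybridised on 2 arrays with swapped dyes, and these agreed at r = 0.446. The median of 28 interferon-stimulated genes was -0.18 to 0.04 on the 4 arrays of B4 and 1.36 to 2.24 on the other 6 AI arrays. B4 was absent from the arrays with B5 and B7. Among the SCNT arrays, that of B888 with B7 had the smallest SD (0.355).

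At an adjusted p under 0.05, 39 of 13824 probes differed between SCNT and AI animals (0.282%), 35 higher (0.253%) and 4 lower (0.0289%) in SCNT (limma, Benjamini-Hochberg over all probes). At an unadjusted p under 0.05, 1058 did (7.65%), 532 higher (3.85%) and 526 lower (3.8%). PLET1, FABP3 and LY6G6C had the largest differences, and of 73 listed genes of oxidative phosphorylation 8 were among the rises. The lower genes were PTGDS, COL7A1, LTBP3 and RPS3A. Of the 39 probes 32 name 1 gene, 6 name none and 1 names several. Among the unnamed probes that rose were the spots numbered 11419 (1.38 ± 0.18, SE) and 17837 (0.85 ± 0.11). Without B4, 8 probes passed (0.0579%), all higher: PLET1, LY6G6C, ALAS1, ATP5MC3, UQCR11, the same 2 unnamed probes and FAM20C. Of these, 7 are among the 39. No probe fell past the limma threshold without B4. At an unadjusted p under 0.05 there were 652 there (4.72%), 354 higher (2.56%) and 298 lower (2.16%).

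The size of the 39 differences depended less on B4 than their calls did. All 39 kept their direction without B4, and each had an unadjusted p under 0.05 there, with a difference 0.699 to 1.22 times that over 20 arrays (median 0.926). The 16 arrays without B4 are among the 20 on which the 39 were picked. Direction and small p-values there follow in part from the call and are no independent support. The median SE of the 39 was 0.134 with B4 and 0.146 without it. When each animal entered as 1 value, 5 SCNT against 4 AI animals, no probe passed in limma (smallest adjusted p = 0.269). Of 13824 probes 604 had an unadjusted p under 0.05 there, a share below the 0.05 that chance alone gives. The 39 were among them, but they had been picked on the same arrays. The calls below therefore rest on counting arrays that share an animal as partly independent, with an estimated correlation of 0.12 over 20 arrays. Without B4 the estimate was 0, so arrays that share an animal counted there as fully independent. In settings chosen after seeing the data, 8 probes passed without B4 at a correlation of 0.12. With 1 value per animal and without B4, no probe passed (limma, smallest adjusted p = 0.37).

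**Figure D1:**
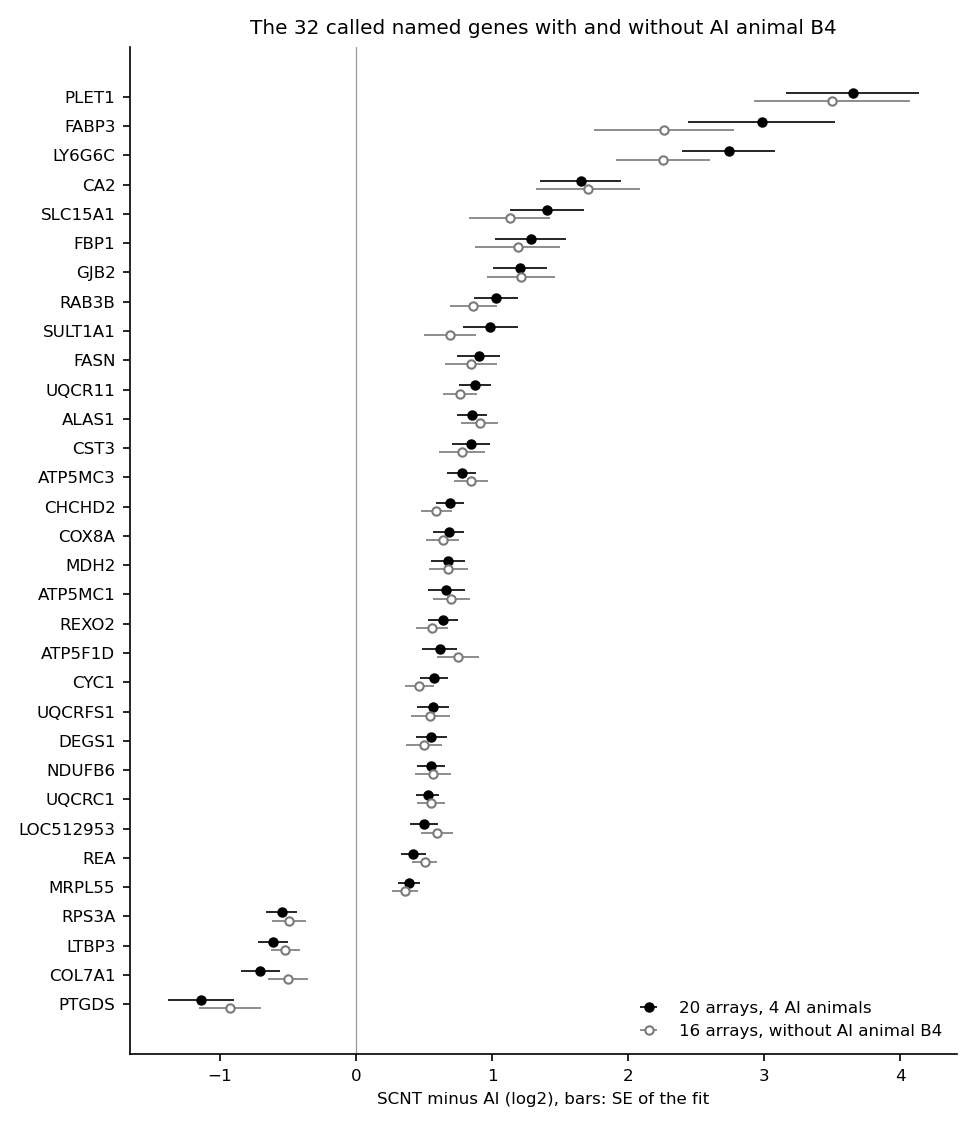
Difference SCNT minus AI (log2, horizontal axis) for the 32 called genes with 1 symbol, over 20 arrays (black) and over 16 arrays without AI animal B4 (open), with bars for the SE of the fit. PLET1 sits at 3.65 and 3.50, FABP3 at 2.98 and 2.26, and no gene crosses 0.

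PLET1, a surface protein known from placental and epithelial progenitor cells in mice, had the largest difference. Against CJ it was 5.48, 4.29, 2.58, 3.19 and 4.75 (log2) in SCNT animals B811, B873, B888, B902 and B904, against 0.62, 0.05, 0.11 and 1.01 in AI animals B2, B3, B4 and B6. All 5 SCNT animals were above all 4 AI animals. The difference was 3.65 ± 0.49 (SE; n = 5 and 4; limma adjusted p = 0.000576), or 12.6-fold, and by 3.50 ± 0.57 without B4 (adjusted p = 0.0194). The lowest SCNT value came from 2 unlike arrays of B888, 4.62 with B5 and 0.53 with B7. Without the second of these, the difference was 4.03 ± 0.35.

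LY6G6C, a small surface protein of the Ly6 family, followed the same order of groups. It was 4.46, 3.23, 3.24, 2.91 and 4.27 in the SCNT animals, against 2.02, 1.65, -0.01 and 0.42 in the AI animals, in the same order of animals. The groups did not overlap, and among AI animals B2 and B3 were well above B4 and B6. The difference was 2.74 ± 0.34 (limma adjusted p = 0.000576), or 6.67-fold, and 2.25 ± 0.34 without B4 (adjusted p = 0.0139).

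FABP3, which carries fatty acids inside cells, was 5.19, 5.16, 2.53, 4.30 and 4.19 in SCNT animals and 1.73, 2.82, -0.05 and 1.48 in AI animals. Here the groups overlapped, since B888 lay below B3. The difference was 2.98 ± 0.54 over 20 arrays (limma adjusted p = 0.0109) and 2.26 ± 0.51 without B4, where it did not pass (adjusted p = 0.164). On the arrays of B888, FABP3 was 4.22 with B5 and 0.84 with B7.

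The next largest named rises are given one by one. CA2, the carbonic anhydrase that turns carbon dioxide into bicarbonate, was 2.33, 1.73, 0.79, 1.90 and 3.08 in SCNT animals, against 0.50, 0.59, 0.40 and -0.31 in AI animals. It rose by 1.65 ± 0.29 (limma adjusted p = 0.0106, and 1.71 ± 0.38 with adjusted p = 0.156 without B4), with no overlap. SLC15A1, a proton-coupled carrier of small peptides, was 1.23, 2.31, 0.61, 1.86 and 2.02 in SCNT animals, against 0.37, 0.91, -0.30 and 0.15 in AI animals. Its difference of 1.41 ± 0.27 passed (adjusted p = 0.022; 1.13 ± 0.30 and adjusted p = 0.281 without B4), while B888 lay below AI animal B3. GJB2, connexin 26 of gap junctions, was 1.90, 1.77, 0.33, 1.38 and 1.32 in SCNT animals and between 0.05 and 0.21 in the 4 AI animals. The AI animals were close together, and B888 was the SCNT animal nearest to them. GJB2 rose by 1.20 ± 0.20 (adjusted p = 0.00569; 1.21 ± 0.25 and adjusted p = 0.0873 without B4), and its second probe differed by 0.76 ± 0.23 without passing (adjusted p = 0.283). RAB3B, a small GTPase of vesicle secretion, was 0.95 to 1.47 in SCNT animals and -0.13 to 0.69 in AI animals and rose by 1.03 ± 0.16 (adjusted p = 0.00364; 0.86 ± 0.17 and adjusted p = 0.0736 without B4). Of the gene lists, 24 nutrient transporters held 1 call (SLC15A1) and 21 junction genes 1 (GJB2), with medians of 0.05 and 0.04. Of all probes 0.253% rose past the threshold.

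Several metabolic enzymes rose singly, beside 0.253% of all probes. Calls were 1 among 17 genes of glycolysis and gluconeogenesis, 2 among 38 of fatty acid metabolism and 1 among 12 of haem metabolism. FBP1, an enzyme of glucose synthesis, was 2.55, 1.48, 0.72, 0.85 and 0.82 in SCNT animals and 0.13, 0.08, -0.18 and 0.08 in AI animals. It rose by 1.28 ± 0.26 (limma adjusted p = 0.0362; 1.19 ± 0.31 and adjusted p = 0.281 without B4), with B811 well above the other SCNT animals. ALAS1, which catalyses the first step of haem synthesis, was 1.27, 0.83, 0.53, 0.73 and 0.98 in SCNT animals, against -0.02, -0.08, 0.10 and -0.02 in AI animals. Every AI animal was close to CJ and every SCNT animal above it. The difference was 0.86 ± 0.11 (adjusted p = 0.000576) and 0.91 ± 0.14 without B4 (adjusted p = 0.0139). SULT1A1, a sulphotransferase of phenols and steroids, rose by 0.99 ± 0.20 and stood at 0.69 ± 0.19 without B4 (adjusted p = 0.353). FASN, the fatty acid synthase, rose by 0.90 ± 0.16 (adjusted p = 0.0103; 0.85 ± 0.19 and adjusted p = 0.164 without B4), but its second probe was at 0.13 ± 0.29. DEGS1, a desaturase of ceramide synthesis, rose by 0.56 ± 0.11 and was at 0.50 ± 0.13 without B4. Outside these enzymes, CST3, the secreted protease inhibitor cystatin C, rose by 0.85 ± 0.14 and was at 0.78 ± 0.17 without B4. FAM20C, a kinase of secreted proteins, passed without B4 alone (0.67 ± 0.11, adjusted p = 0.0221, against 0.50 ± 0.11 and adjusted p = 0.0722 with B4), and its 2 other probes were at -0.06 and -0.03. LOC512953 rose by 0.50 ± 0.10, was at 0.60 ± 0.12 without B4 and has no further name in the annotation used here.

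**Figure D2:**
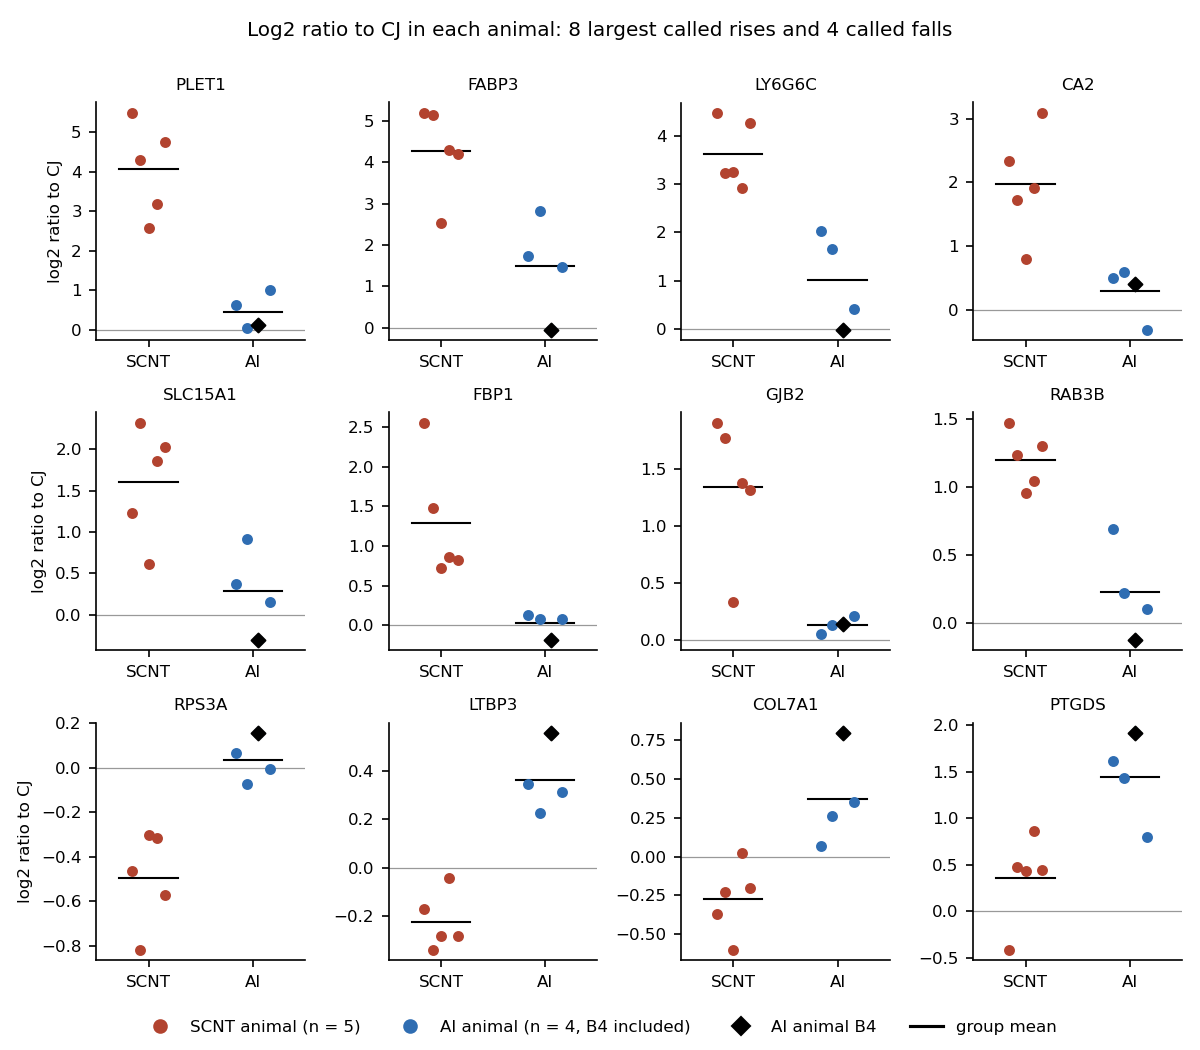
Log2 ratio to CJ (vertical axis) in each of 5 SCNT animals (left, red) and 4 AI animals (right, blue, with B4 as a black diamond) for the 8 largest called rises with a name and the 4 called falls; lines are group means and each panel has its own scale. The groups overlap in FABP3, SLC15A1 and PTGDS and are apart in the other panels.

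Genes of oxidative phosphorylation, the mitochondrial machinery that passes electrons from NADH and succinate to oxygen and uses the proton gradient to make ATP, were for the most part higher in SCNT animals. Of 73 measured genes listed for complexes I to V, 1 probe each, 8 rose and 0 fell past the threshold (0.253% of all probes rose). The list also holds associated proteins such as ATP5IF1 and DMAC2L, and NDUFA4 is counted in complex I. All members are called subunits below. At an unadjusted p under 0.05, 42 were higher and 0 lower (57.5%, against 3.85% of all probes), and without B4 37 and 0. The median difference was 0.30 with B4 and 0.29 without it, beside -0.0079 and -0.0061 for 8073 named genes. Of the 73, 66 were above 0 (90.4%, against 47.7% of the named genes). This list was chosen with earlier results of these data known, so its shares beside those of all probes are a description and no test. Subunits are made and degraded together, so they are not independent of each other. These are bulk samples, in which more cells of a type and more RNA per cell cannot be told apart.

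The animals were ordered by group on the median of the 73 subunits. It was 0.23, 0.21, 0.08, -0.02 and 0.02 in SCNT animals B811, B873, B888, B902 and B904, against -0.05, -0.18, -0.12 and -0.21 in AI animals B2, B3, B4 and B6. All SCNT animals were above all AI animals, most narrowly B902 above B2. Such separation was not particular to this list: medians of 16 endothelial markers were -0.13 to 0.03 in SCNT and 0.04 to 0.05 in AI animals. B4 lay among the other AI animals on this list: its 4 arrays were at -0.29 to -0.05 and the 6 other AI arrays at -0.21 to -0.05. Through B5, B7, B8, B808 and B857 the median difference was 0.20, 0.30, 0.33, 0.43 and 0.18, with 56 to 68 subunits above 0. In all, 37 of 73 were above 0 through all 5 CJ animals and 0 below 0 through all 5 (4.93% and 5.16% of all probes). The 5 values share SCNT and AI animals and come from the arrays of the fit, so they are not independent.

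Complex III, which passes electrons from ubiquinol to cytochrome c, had 3 of 9 subunits past the threshold (0.253% of all probes rose). UQCR11, a small subunit of it, was 0.73, 0.79, 0.56, 0.25 and 0.72 in SCNT animals, against -0.02, -0.29, -0.47 and -0.16 in AI animals. The groups did not overlap, and UQCR11 rose by 0.87 ± 0.12 (limma adjusted p = 0.000576; 0.77 ± 0.12 and adjusted p = 0.0194 without B4). CYC1, cytochrome c1, rose by 0.57 ± 0.10 (adjusted p = 0.0106; 0.47 and 0.16 without B4). UQCRC1, a core subunit, rose by 0.53 ± 0.08 (adjusted p = 0.00433; 0.55 and 0.0633 without B4). UQCRC2, the other core subunit, was at 0.46 ± 0.11 (adjusted p = 0.112; 0.35 without B4). UQCRFS1, the Rieske iron-sulphur protein, rose on 1 probe (0.56 ± 0.12, and 0.55 without B4) and not on its 2 others (-0.04 and 0.03), 1 of which stands for the gene in the counts.

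ATP synthase had 3 of 13 subunits past the threshold (0.253% of all probes rose), and 2 of them encode the same c subunit of its rotating ring. ATP5MC3 was 0.53, 0.48, 0.60, -0.02 and 0.50 in SCNT animals, against -0.33, -0.46, -0.24 and -0.50 in AI animals. Of the SCNT animals only B902 was below 0, and it was still above every AI animal. ATP5MC3 rose by 0.78 ± 0.11 (limma adjusted p = 0.000624; 0.85 ± 0.13 and adjusted p = 0.0139 without B4). ATP5MC1 rose by 0.66 ± 0.14 (0.70 without B4) and ATP5F1D, the delta subunit, by 0.62 ± 0.13 (0.75 without B4). ATP5PO, a subunit of the stalk, was at 0.33 ± 0.07 and missed the threshold (adjusted p = 0.0509; 0.29 and 0.402 without B4).

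Complexes I, II and IV held fewer calls (0.253% of all probes rose). Complex I, the NADH dehydrogenase, had 1 call among 35 subunits, NDUFB6 (0.55 ± 0.10, adjusted p = 0.0172; 0.57 and 0.164 without B4), and a median of 0.26; 33 of the 35 were above 0. All 4 subunits of complex II, succinate dehydrogenase, were above 0 (median 0.35) and none passed, with 3 at an unadjusted p under 0.05. Complex IV, cytochrome c oxidase, had 1 call among 12, COX8A (0.68 ± 0.11, adjusted p = 0.00569; 0.64 and 0.0633 without B4), and a median of 0.36. Of the 73 subunits 7 were below 0, and none of these had an unadjusted p under 0.05. NDUFB10, named after its value was seen, was the lowest at -0.24, and at -0.048 without B4, its highest AI animal (0.61).

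**Figure D3:**
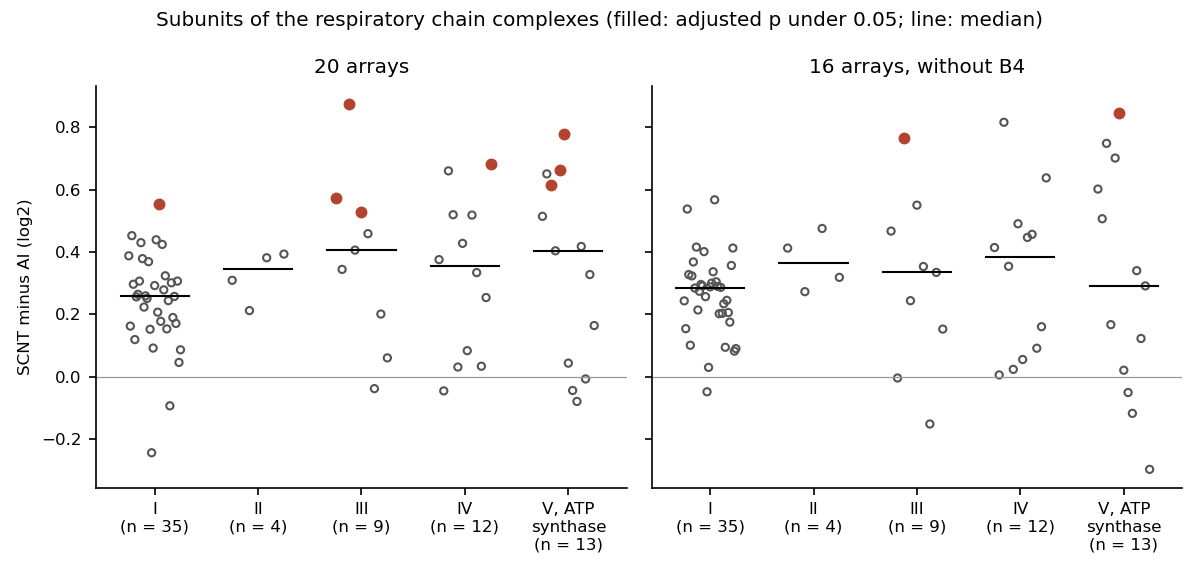
Difference SCNT minus AI (log2, vertical axis) for each measured subunit of the 5 complexes, over 20 arrays (left) and 16 arrays without B4 (right); filled points passed the threshold and lines are medians. Most of the 73 points lie above 0 in both panels, with 8 filled on the left and 2 on the right.

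Some mitochondrial genes outside the chain rose too (0.253% of all probes rose). MDH2, the mitochondrial malate dehydrogenase, was 0.48, 0.51, 0.27, -0.14 and 0.21 in SCNT animals, against -0.35, -0.48, -0.41 and -0.41 in AI animals, with no overlap. It rose by 0.68 ± 0.12 (adjusted p = 0.0109; 0.68 and 0.0875 without B4) as the only call among 17 genes of the citric acid cycle, whose median was 0.12. CHCHD2, a protein of the mitochondrial intermembrane space, rose by 0.69 ± 0.11 (adjusted p = 0.00283; 0.59 and 0.0633 without B4), and REXO2, a nuclease that degrades short RNA in mitochondria, by 0.64 ± 0.11 (0.56 without B4). REA, kept under the array annotation's name and listed in the gene table as a synonym of PHB2, a scaffold of the inner membrane, rose by 0.42 ± 0.09 (0.51 without B4). MRPL55 rose by 0.39 ± 0.08 (0.36 without B4) as the only call among 63 mitochondrial ribosomal proteins, which had a median of 0.06 (10 higher and 1 lower at an unadjusted p under 0.05). Glycolysis and gluconeogenesis genes had a median of 0.11 over 17 genes and 0.39 without B4, with FBP1 the only call in the first fit and 0 in the second (9 higher and 0 lower at an unadjusted p under 0.05 without B4).

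The 4 falls (0.0289% of all probes) differed in kind. PTGDS, which makes prostaglandin D2, was -0.41, 0.48, 0.43, 0.86 and 0.44 in SCNT animals, against 1.62, 1.44, 1.91 and 0.80 in AI animals. B902 lay just above AI animal B6, and the other SCNT animals were below all AI animals. PTGDS fell by 1.14 (-1.14 ± 0.24, limma adjusted p = 0.0449), and without B4 it was at -0.93 ± 0.23 (adjusted p = 0.238). LTBP3 tethers the inactive form of TGF-beta to the matrix. It was -0.17, -0.34, -0.28, -0.04 and -0.28 in SCNT animals, against 0.35, 0.23, 0.55 and 0.31 in AI animals. Every SCNT animal was below 0 and every AI animal above it, a difference of -0.61 ± 0.11 (adjusted p = 0.0106; -0.52 ± 0.11 and adjusted p = 0.0839 without B4). COL7A1 encodes type VII collagen, which anchors epithelia to the matrix below, and was at -0.70 ± 0.15 (adjusted p = 0.0387), and at -0.50 ± 0.15 without B4, its highest AI animal (0.79). RPS3A, a protein of the small ribosomal subunit, was -0.46, -0.82, -0.30, -0.32 and -0.57 in SCNT animals, against 0.07, -0.07, 0.16 and near 0 in AI animals, and fell by 0.54 (-0.54 ± 0.12, adjusted p = 0.0431; -0.49 ± 0.13 and adjusted p = 0.274 without B4). It was the only call among 56 cytosolic ribosomal proteins, whose median was -0.14 (0 higher and 13 lower at an unadjusted p under 0.05) and -0.06 without B4 (1 and 11). None of the 4 falls passed without B4, nor was any probe called lower without B873, B904, or CJ animal B5, B7 or B8.

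The called genes were next placed against CJ itself. The 2 differences from CJ share the CJ animals and are given side by side. The probes were called on the gap between these 2 differences. Counts of rises above CJ in SCNT animals and below it in AI animals thus follow in part from the call. The shares of all probes beside them are no test. Of the 35 rises, 28 were also above and 2 below CJ in SCNT animals (background 10.4% and 11.3%), and 3 were above and 10 below CJ in AI animals (6.92% and 8.08%). PLET1 was 4.06 above CJ in SCNT animals and 0.41 in AI animals, where it did not pass (adjusted p = 0.667). MDH2 was 0.27 above CJ in SCNT animals and 0.41 below it in AI animals (-0.41), and ATP5MC3 0.42 above and 0.36 below (-0.36), with all 4 differences past the threshold. REXO2 was below CJ in both, at -0.46 in SCNT and -1.10 in AI animals. ATP5MC1, NDUFB6, DEGS1 and MRPL55 were within 0.18 of CJ in SCNT animals without passing, against -0.69, -0.37, -0.53 and -0.36 in AI animals. Over the 73 respiratory subunits the median was 0.08 in SCNT and -0.13 in AI animals, with 23 higher and 4 lower than CJ in SCNT animals against 2 and 21 in AI animals. Of the falls, 3 passed against CJ in AI animals: PTGDS was 1.5 above CJ in AI animals and LTBP3 0.39 and COL7A1 0.43, while none of these passed in SCNT animals (0.36, -0.22 and -0.27). RPS3A passed in SCNT animals (-0.49) and not in AI animals (0.05).

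The difference could also be read through each CJ animal separately, from 2 SCNT and 2 AI arrays. All 35 rises were positive through all 5 CJ animals, which 4.93% of all probes were, and all 4 falls negative (5.16%). The probes were called on these same arrays, and the 5 values share animals, so this count is no independent support. PLET1 was 4.03, 2.12, 4.55, 4.51 and 3.19 through B5, B7, B8, B808 and B857, and FABP3 3.12, 0.81, 5.22, 3.99 and 2.30. The B7 values contain the array of B888 described above. Over the 35 rises the median was 0.54 and 0.71 through B5 and B7, where no B4 array enters, and 1.09, 1.05 and 0.78 through B8, B808 and B857, where B4 does. The SCNT animals met differed too: B888 and B902 with B5, B873 and B888 with B7, B811 and B873 with B8. B808 met B811 and B904, and B857 met B902 and B904. The part of B4 in these medians cannot be told apart from that of the SCNT animals. Of the 35 rises the smallest value came through B5 in 19, through B7 in 13, and through B8, B808 and B857 in 1 each. The largest came through B8 in 17, B808 in 11, B7 in 5, B857 in 2 and B5 in 0. Single genes varied in this order. FABP3 through B857 was below its value through B5, and UQCRC1 was 0.39 and 0.61 through B5 and B7 and 0.54, 0.48 and 0.62 through the others.

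Of the 35 rises 27 had all 5 SCNT animals above all 4 AI animals (0.897% of all probes), and of the 4 falls 3 had all SCNT animals below (0.608%). Without B4 these were 29 and 3 (1.73% and 1.51%). The animal values come from the arrays on which these probes were called. Separation of the groups therefore follows in part from the call, and the shares of all probes are no test of it. The SCNT animals were not alike in these genes. Of the 35 rises the lowest SCNT animal was B902 in 22 and B888 in 11, and the highest was B811 in 15, B873 in 13 and B904 in 6. The medians over the 35 were 0.88, 1.00, 0.53, 0.43 and 0.76 in B811, B873, B888, B902 and B904, against 0.03, -0.02, -0.18 and -0.06 in B2, B3, B4 and B6. Leaving out B902 gave 53 calls and leaving out B873 gave 17.

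Genes that respond to interferon tau gave no call between SCNT and AI animals, and their sign turned with B4. RSAD2, an antiviral enzyme, was 5.0, 5.18, 5.87, 4.93 and 6.23 in SCNT animals, against 5.39, 6.30, -0.34 and 5.03 in AI animals. B4 was near CJ, and the other AI animals lay within the SCNT range or just above it. The difference was 1.96 ± 0.86 (limma adjusted p = 0.592) and -0.13 ± 0.31 without B4. ISG15 was at 1.75 ± 0.78 with B4 and 0.03 ± 0.42 without it, MX1 at 1.38 ± 0.72 and -0.44 ± 0.28, and MX2 at 1.11 ± 0.58 and -0.13 ± 0.40. Of 28 measured interferon-stimulated genes, 27 were above 0 with B4 and 9 without it, the median was 0.34 and -0.14, and 0 passed in either fit (5 higher and 0 lower, then 0 higher and 2 lower, at an unadjusted p under 0.05).

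Hormone receptors did not pass. OXTR, the oxytocin receptor, was -3.69, -3.15, -2.73, -3.91 and -4.22 in SCNT animals, against -3.57, -4.34, -1.19 and -2.73 in AI animals. B4 was the least reduced. Its difference was -0.83 ± 0.41 (limma adjusted p = 0.679) and 0.01 ± 0.32 without B4. PGR, the progesterone receptor, was -1.31, -1.14, -0.57, -1.33 and -1.50 in SCNT animals and -0.56, -0.64, -0.24 and -0.81 in AI animals, with only B888 among the AI values. PGR was at -0.65 ± 0.16 (adjusted p = 0.102, 95% interval -0.98 to -0.32) and at -0.50 ± 0.18 without B4 (adjusted p = 0.761). ESR1, an oestrogen receptor, was at -0.17 ± 0.19 and at -0.04 ± 0.23 without B4. PTGS2, which makes prostaglandin H2, was at -0.05 ± 0.16 on 1 probe (-0.09 without B4). On its other probe it was at 1.06 ± 0.53 with B4, the lowest AI animal (-1.82), and at 0.12 ± 0.48 without it. SERPINA14, a major uterine secreted protein, was at 0.31 ± 1.04, and at -1.27 ± 1.04 without B4, with AI animals spread between -3.05 in B4 and 4.68 in B6.

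**Figure D4:**
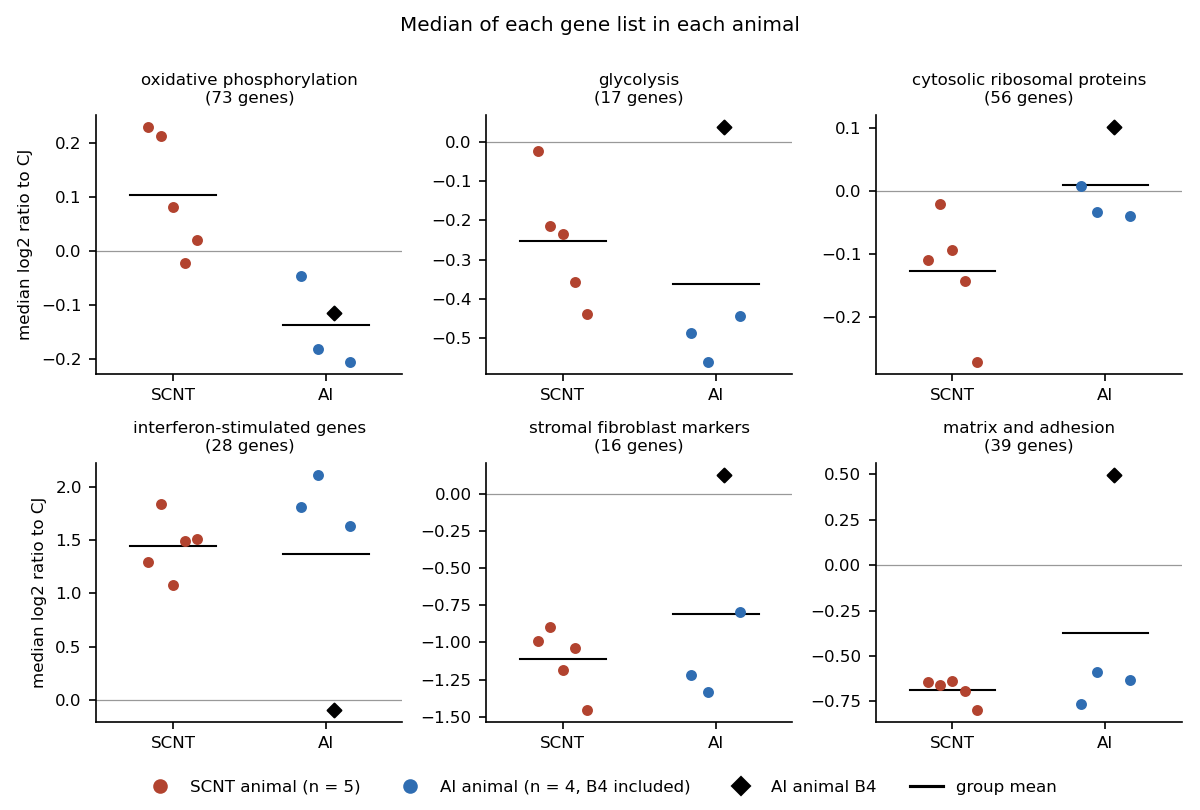
Median log2 ratio to CJ (vertical axis) of 6 gene lists in each SCNT animal (left, red) and AI animal (right, blue, with B4 as a black diamond); lines are group means. B4 lies with the other AI animals for oxidative phosphorylation (-0.12) and apart from them for interferon-stimulated genes (-0.10), stromal markers (0.12) and matrix genes (0.50).

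Markers of the cell types in the tissue were set beside these results. Stromal fibroblast markers had a median difference of -0.73 with B4 and -0.05 without it over 16 genes (0 calls in either fit; 0 higher and 8 lower, then 0 and 2, at an unadjusted p under 0.05). Their median was -1.46 to -0.89 in the 5 SCNT animals, against 0.12 in B4 and -1.34 to -0.79 in the 3 other AI animals. Matrix and adhesion genes moved likewise, at -0.42 and -0.01 over 39 genes, and smooth muscle markers at -0.27 and -0.004 over 12. Their part in the calls was not tested. Epithelial markers had a median of 0.01 with B4 and 0.02 without it over 15 genes. PLET1 was the only one that passed (0.253% of all probes rose). Endothelial markers were at -0.05 over 16 genes, with 0 calls (0 higher and 3 lower at an unadjusted p under 0.05). Macrophage, T and NK, B cell, neutrophil and red blood cell markers had medians between -0.07 and 0.05 with 0 calls (at an unadjusted p under 0.05, 1 macrophage marker was higher and none of the others either way).

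Trophoblast markers, genes of the outer layer of the conceptus, had a median of 0.16 with B4 and 0.15 without it over 22 genes, and 0 passed (6 higher and 0 lower at an unadjusted p under 0.05). IFNT2, an interferon tau gene, was 0.80, 0.01, 0.16, 2.17 and 0.14 in SCNT animals and -0.55 to 0.27 in AI animals, with a difference of 0.67 ± 0.29 (adjusted p = 0.588; 0.70 ± 0.36 without B4). B902 was the highest of the 9 animals for 12 of the 22 markers, and it was the lowest SCNT animal for most of the called rises.

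Of 9 MHC class II presentation genes 5 were above 0 and 4 below, with a median of 0.02, and 0 passed (0 higher and 3 lower at an unadjusted p under 0.05). The 3 with the lowest values, named after these were seen, were CD74, BOLA-DRA and BOLA-DRB3. CD74 was 0.16, 1.51, 0.52, 0.49 and -0.47 in SCNT animals, against 1.32, 1.40, 1.31 and 0.66 in AI animals. Its difference was -0.75 ± 0.25 (limma adjusted p = 0.358) and -0.68 without B4. BOLA-DRA was at -0.36 ± 0.14 and -0.50 without B4, and BOLA-DRB3 at -0.45 ± 0.16 and -0.46. In all 3, the mean of the SCNT animals was below that of the AI animals, and the ranges overlapped.

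Among the arrays used here, SCNT and AI met directly only as caruncular pools, in 2 pairs that were each hybridised with both dye orientations. The sources used here do not give the number of animals in a pool, and pools and single animals may share animals. All 35 rises were higher in SCNT in both pairs, at 0.19 or more, against 30.4% of all probes. PLET1 was 0.20 and 1.44 in the 2 pairs, LY6G6C 0.72 and 1.24, FABP3 0.56 and 1.35, and UQCR11 0.77 and 0.83. Of the 73 respiratory subunits 64 were higher in both pairs (87.7%) and 1 lower in both, with medians of 0.28 and 0.32. Of the 4 falls 2 were lower in both pairs (background 28.5%): LTBP3 (-0.62 and -0.57) and COL7A1 (-0.03 and -0.16). PTGDS was -0.20 and 0.14, and RPS3A ran the other way, at 0.22 and 0.18. Of the 56 cytosolic ribosomal proteins 41 were higher in both pairs and 4 lower. CD74, named after its value was seen, was -0.92 and -1.61. Cell type markers differed in the pools too: the median of trophoblast markers was 1.25 in pair 1 and -0.09 in pair 2 (IFNT2 2.13 and 0.46), and that of epithelial markers -0.18 and -0.56. Their part in the pool values was not tested. The 2 areas were not tested against each other.

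**Figure D5:**
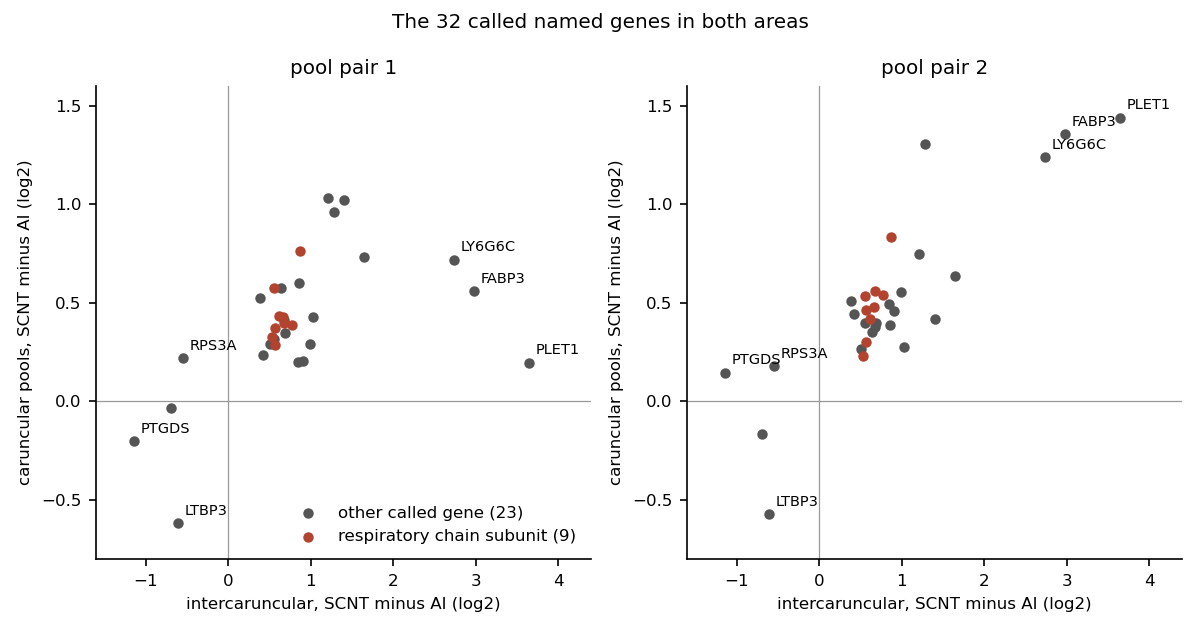
Difference SCNT minus AI in the caruncular pools (log2, vertical axis, pair 1 left and pair 2 right) against that in intercaruncular tissue (log2, horizontal axis) for the 32 called genes with 1 symbol, respiratory chain subunits in red (9) and others in grey (23). All 28 rises lie above 0 in both panels, and RPS3A lies above 0 on the vertical axis and below it on the horizontal one.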

How the data were processed

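The deposited values are log2 ratios per spot of 2-colour arrays. The sources used here do not give the background correction or normalization. Base 2 was read from 331 values below -4, of which 100% matched a 4-decimal ratio (tolerance 6e-05). The 2 spots of a probe were averaged (27648 spots, 13824 probes), and no value was missing on these 20 arrays. Symbols came from the supplied platform annotation, updated through Entrez numbers for 8620 of 8645 probes.

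The fit (limma 3.58.1, R 4.3.3, generalised least squares) had SCNT, AI and CJ as groups and a term for dye. Arrays with an animal in common shared 1 correlation (0.12, and 0 without B4). Moderated p-values were adjusted by Benjamini-Hochberg over 13824 probes, with a threshold of 0.05. Errors are SE of the fit, and animal values are means of an animal's arrays. On simulated data with this design, 47.8%, 94% and 100% of probes changed by 0.5, 1 and 2 (log2) were called over 20 arrays, and 34.3%, 88.1% and 100% without B4. Of 13624 unchanged probes 3 were called over 20 arrays and 8 without B4. The simulated noise was normal, with a correlation of 0.12 and no animal set apart as B4 was. These shares therefore hold for that setting and not for the real arrays.

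Named were all called genes with 1 symbol, 4 members, by smallest p, of any list with at least 3 calls, and fixed pregnancy genes; others are said to be named after their values were seen. The probe with the fewest missing values, then the first, stood for a gene. Members and lists were chosen with earlier results of these data known. Alternatives left out animals, arrays or probes and changed the dye term, correlation, scaling, spots, prior and unit of replication.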

Additional observations from a re-analysis of the deposited data

Results flagged for a closer look

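In groups of 4 or 5 animals, 130 sets of animal values of the named genes and lists were tested for a value far from the rest, and 7 had one; chance alone flags about 1 in 20. AI animal B4 was the far value in 4. MX1 was -0.63 in B4 and 4.42 to 4.64 in the other 3 AI animals. FBP1 was -0.18 in B4 and 0.08 to 0.13 in the others, and SULT1A1 was -0.39 in B4 and 0.39 to 0.54 in the others. The median of matrix and adhesion genes was 0.50 in B4 and -0.76 to -0.59 in the others.

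Among SCNT animals, ATP5MC3 was -0.0215 in B902 and 0.48 to 0.60 in the other 4. FAM20C was -0.12 in B904 and 0.16 to 0.24 in the others, and SERPINA14 was 1.49 in B811 and -0.43 to 0.11 in the others.

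RPS3A was lower in SCNT through all 5 CJ animals between the caruncles (-0.54) and higher in both pairs of caruncular pools (0.18 and 0.22). The difference between the areas was not tested.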

How the results depend on the processing

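The 39 calls became 8 to 53 when 1 of the 14 animals was left out (53 without SCNT animal B902, 17 without B873, 18 without B904, 22 without B811, 25 without AI animal B6, 8 without B4, and 23, 24, 8, 13 and 21 without CJ animals B5, B7, B8, B808 and B857). With 1 value per animal there were 0 calls. Without the 2 arrays of B4 with B8 there were 26. The other settings gave 29 to 43, 33 of them with the CJ animals as a block. In each of these settings all 39 probes, or the 32 still tested, kept their direction. The settings reuse arrays on which the 39 were picked, so this is no independent support. Of the 39, 7 passed without each of the 14 animals, and 21 in at least 7 of these 14 fits.

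Without B4, the 8 calls became 0 to 22 when a further animal was left out (0 without B873, B3, B6, B5, B808 or B857, 22 without B902) and 1 with the CJ animals as a block. Settings chosen after seeing the data gave 0 with 1 value per animal and 20 without the array of B888 with B7, whose removal from the 20 arrays gave 42.

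Signs turned without AI animal B4 for RSAD2 (-0.133 to 2.7 over the animals left out), MX1 (-0.444 to 1.88), MX2 (-0.128 to 1.79), OXTR (-1.27 to 0.00657) and SERPINA14 (-1.27 to 1.58). SERPINA14 also turned without B2 (-0.011), without CJ animal B8 (-0.072), with 1 value per animal (-0.152) and without the 2 arrays of B4 with B8 (-0.145). PTGS2 (-0.155 to 0.103) turned without B902, without CJ animal B857 (0.029) and with the second spot (0.023). None of these had passed. The labels pair no SCNT with an AI animal; pairing through the CJ animals is the block given above. The median of the respiratory subunits stayed between 0.24 and 0.36 in 25 alternatives. The number of animals and the unknown signal over background limit these results.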
